A study of Rattus norvegicus with 12 samples.

Results

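Histone transcripts were measured in RBCs of rats before and after cold storage of the blood, and 40 histone genes were found among the 29539 genes of the deposited table. The members were chosen by symbol alone, as H1, H2A, H2B, H3 and H4 genes under their older and newer names, with a trailing number that marks a second gene model of the same symbol ignored. Wild-type Wistar rats were 11 weeks old, and no genetic change separated any groups. Blood with the anticoagulant CPDA was stored at 4 °C for 0 days (Cont), 10 days (10 d) or 20 days (20 d), and RBCs were purified by repeated washing before RNA extraction. Total RNA depleted of rRNA was sequenced from 4 libraries per condition, so that transcripts without a poly(A) tail could also be read. By the methods of the study, blood drawn from a rat was split over all the conditions, so that the conditions share rats and their libraries are not independent between conditions. Which rat carries which replicate number is not given, so the tests took the libraries as unpaired and the p-values measure the spread between libraries, and an effect of the storage period and of the day on which RBCs were purified cannot be told apart.

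Nucleosomes wrap DNA around an octamer of the core histones H2A, H2B, H3 and H4, and the linker histone H1 binds the DNA between them. Replication-dependent histone genes are transcribed in S phase to package new DNA, they stand mostly in clusters, and their mRNAs usually end in a stem-loop in place of a poly(A) tail. Replacement histones such as H3.3 and H2A.Z are made outside S phase from polyadenylated mRNAs and are put into chromatin throughout the life of a cell. Erythroblasts condense their chromatin and expel the nucleus, so that the RNA of reticulocytes and RBCs is what remains of earlier transcription, whereas leukocytes keep a nucleus and go on transcribing.

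Of the 40 genes, 30 were grouped as replication-dependent (5 H1, 8 H2A, 7 H2B, 8 H3 and 2 H4 genes) and 7 as replacement histones (*H3f3a_1*, *H3f3a_2*, *H3f3c*, *H2az1*, *H2az2*, *H1f0* and *H1f10*). *H2ax*, whose protein marks DNA breaks when phosphorylated and whose transcripts are known in both forms, was kept apart, as were the germline linker histones *H1f7* and *H1f8*. On chromosome 17 lay 24 members. Another gene overlapped 17 members, and for 10 of them the other gene was also a member, so that the reads of these genes are uncertain where the counting had to divide them. The table also carries the symbol *H3f3a* at 2 places. *H3f3a_2* (mRatBN7.2 chr13:92533298-92544908) lies between *Acbd3* and *Sde2*, where the RefSeq annotation of GRCr8 has *H3f3a*. *H3f3a_1* (mRatBN7.2 chr10:101256480-101258709) lies between *Galk1* and *Unk*, where RefSeq has *H3f3b*, the other gene for the same H3.3 protein. *H3f3c* on chromosome 7 lies between *Dscc1* and *Deptor*, where RefSeq has a pseudogene of the same name. RefSeq lists 8 pseudogenes of *H3f3a*, and reads of the H3.3 genes may be shared with such copies.

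The promoters of 5 genes that are described below are shown first. They are the RefSeq sequences of GRCr8 from 250 bases before to 50 bases after the start of the gene, read 5′ to 3′ on the strand of the gene. Capitals mark the CCAAT box, the TATA motif TATAAA and the GC box GGGCGG, each on either strand, so that CCAAT also appears as ATTGG and GGGCGG as CCGCCC. *H3f3a_2* stands for RefSeq *H3f3a* at chr13:95076646-95076945 (minus strand) and *H3f3a_1* for *H3f3b* at chr10:101757587-101757886 (minus strand). *Hist3h2ba* is at chr10:44225171-44225470 (plus strand), *H2az1* at chr2:229028845-229029144 (plus strand) and *H1f2* at chr17:41820404-41820703 (minus strand).
H3f3a_2: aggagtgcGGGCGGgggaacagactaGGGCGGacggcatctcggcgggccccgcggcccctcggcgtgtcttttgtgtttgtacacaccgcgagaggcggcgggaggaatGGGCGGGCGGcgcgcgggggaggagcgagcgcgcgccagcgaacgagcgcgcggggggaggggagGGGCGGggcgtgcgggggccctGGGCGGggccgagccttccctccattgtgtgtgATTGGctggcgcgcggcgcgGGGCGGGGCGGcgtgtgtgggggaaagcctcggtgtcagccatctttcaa
Hist3h2ba: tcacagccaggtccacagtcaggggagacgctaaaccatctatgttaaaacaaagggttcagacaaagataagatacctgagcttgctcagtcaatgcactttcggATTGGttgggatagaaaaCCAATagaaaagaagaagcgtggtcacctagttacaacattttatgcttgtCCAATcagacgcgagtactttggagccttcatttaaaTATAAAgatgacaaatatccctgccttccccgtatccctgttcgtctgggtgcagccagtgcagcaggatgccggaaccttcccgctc
H3f3a_1: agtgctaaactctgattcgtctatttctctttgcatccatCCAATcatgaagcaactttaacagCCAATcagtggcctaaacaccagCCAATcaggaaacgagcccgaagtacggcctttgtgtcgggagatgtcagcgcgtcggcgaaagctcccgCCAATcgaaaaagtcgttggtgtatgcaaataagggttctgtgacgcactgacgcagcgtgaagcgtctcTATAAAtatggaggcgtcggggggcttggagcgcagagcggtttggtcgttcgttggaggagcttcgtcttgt
H2az1: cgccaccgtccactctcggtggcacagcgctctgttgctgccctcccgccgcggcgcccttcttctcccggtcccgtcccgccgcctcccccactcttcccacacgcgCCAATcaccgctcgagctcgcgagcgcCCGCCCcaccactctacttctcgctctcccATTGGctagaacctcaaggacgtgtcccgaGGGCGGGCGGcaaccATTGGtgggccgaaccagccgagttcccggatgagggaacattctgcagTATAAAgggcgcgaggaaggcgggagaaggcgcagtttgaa
H1f2: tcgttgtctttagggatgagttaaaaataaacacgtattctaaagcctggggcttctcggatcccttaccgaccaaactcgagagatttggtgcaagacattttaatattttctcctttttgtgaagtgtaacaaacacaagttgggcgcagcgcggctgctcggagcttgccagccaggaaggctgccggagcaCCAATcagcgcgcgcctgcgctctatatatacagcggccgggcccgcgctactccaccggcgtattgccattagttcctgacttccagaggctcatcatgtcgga

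Both genes of H3.3 had different promoters by these motifs. The *H3f3a_2* promoter held 8 GC boxes, 1 CCAAT box and no TATA motif, whereas the *H3f3a_1* promoter held 4 CCAAT boxes, 1 TATA motif and no GC box. The *H2az1* promoter held 3 CCAAT boxes, 1 TATA motif and 3 GC boxes. *Hist3h2ba* had 3 CCAAT boxes and 1 TATA motif, and *H1f2* had 1 CCAAT box. Among the 29 members matched to 1 promoter, CCAAT was found in 19 of 20 replication-dependent and 4 of 6 replacement genes, against 37.5% of all 33469 promoters. The TATA motif was found in 13 of 20 and 2 of 6, against 14.2% of all promoters, and the GC box in 10 of 20 and 5 of 6, against 33.1%. A matched motif describes the letters only and is no measure of binding. Any link between these motifs and the change of a gene in storage was not tested.

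Histone genes took a small part of each library. The Cont libraries had total counts of 65735930 to 85996710, the 10 d libraries 71414307 to 79472764 and the 20 d libraries 67960637 to 76970267. The 40 histone genes together had 22045 to 34147, 22774 to 33215 and 23398 to 35620 counts in Cont, 10 d and 20 d, respectively, which is 0.0256% to 0.0451%, 0.0287% to 0.0429% and 0.0304% to 0.0496% of the totals. A filter on low counts left 8382 genes of the table and 31 of the 40 histone genes for the tests (24 replication-dependent, 6 replacement, and *H2ax*). Levels are given below as CPM, counts relative to a library size scaled by TMM (trimmed mean of M values), and a call means an adjusted p under 0.05 in edgeR's quasi-likelihood test. The scaling matters for the rises given here and for some values at 10 d. When the libraries were scaled by their total counts alone, the median gene shifted by -0.36 on the log2 scale at 10 d and by -0.39 at 20 d. Of all 8382 genes, 98 were then called higher and 1899 lower at 10 d, and 99 higher and 2911 lower at 20 d. No histone gene was called higher in any comparison, 3 were called lower at 10 d (*H2az1*, *H3f3a_1* and *Hist2h3c2_4*), and the falls of *H3f3a_1* and *H1f2* at 20 d remained called.

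*H3f3a_2*, a gene of H3.3, held 73.5% to 80.4% of all histone counts in a library, and its mean TPM, which is per transcript length, was 281.8. It was followed by *H3f3c* with a mean of 44.1 TPM and by *Hist3h2ba*, an H2B gene, with 40.3 TPM. The next gene, the linker histone *H1f4*, had 5.05 TPM. Among the 12 genes of highest TPM, the others were *Hist1h2bq_1* (4.65), *Hist1h2bo* (3.75), *Hist2h3c2_6* (3.56), *Hist1h2ac* (3.34), *H3f3a_1* (2.51), *Hist2h3c2_4* (2.20), *Hist2h3c2_3* (2.02) and *H1f0* (1.49 TPM). Most histone reads in these purified RBCs thus came from 1 replacement gene.

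The calls among histone genes went in both directions at 20 d. At 10 d, 4 of 31 histone genes were higher than in Cont (*H4f3*, *H3f3c*, *Hist1h2bq_1* and *Hist3h2ba*) and 0 were lower, against 13.5% of all genes tested that were called in either direction, 7.86% higher and 5.68% lower. An unadjusted p under 0.05 was found for 13 of the 31 histone genes in this comparison, beside 2099 of all 8382 genes tested. DESeq2 also called 0 histone genes lower. At 20 d, 6 histone genes were higher than in Cont (the same 4 genes with *H3f3a_2* and *Hist1h2bo*) and 3 were lower (*H3f3a_1*, *H1f2* and *H2az1*), against a background of 33.9% called, 12.8% higher and 21.1% lower. Between 10 d and 20 d, 1 was higher (*Hist3h2ba*) and 2 were lower (*H3f3a_1* and *H1f2*), against 16% called, 3.38% higher and 12.6% lower. The test of any difference among the 3 conditions at an adjusted p under 0.0001 called *H3f3a_1* alone (adjusted p = 9.06e-06), 1 of 31, against 6.13% of all genes. By the levels alone, the libraries did not overlap for 12 of the 31 genes at 10 d against Cont (11 above and 1 below), beside 17.8% of all genes tested, for 7 at 20 d against Cont (4 above and 3 below), beside 31.4%, and for 3 at 20 d against 10 d, all 3 below, beside 19.7%.

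**Figure D1:**
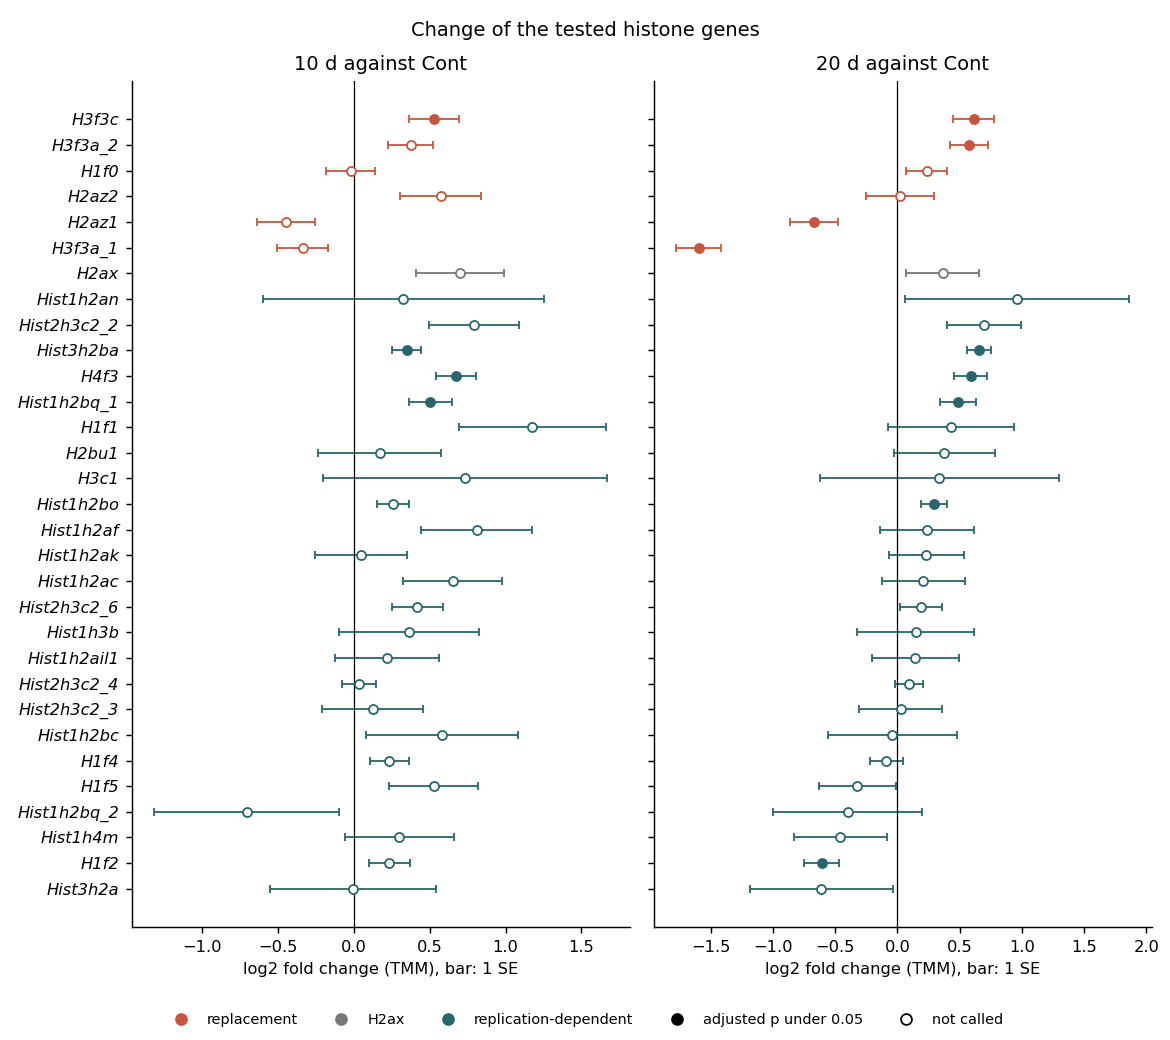
Log2 fold change of the 31 tested histone genes (rows) against Cont at 10 d (left) and 20 d (right), with bars of 1 SE, coloured by class, and filled where the adjusted p was under 0.05. At 10 d the 4 filled points lie to the right of 0, and at 20 d 6 lie to the right and 3 to the left, of which *H3f3a_1* is the lowest at -1.60; with scaling by total counts alone the points to the right are not called.

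*H3f3a_1*, the H3.3 gene at the place of *H3f3b*, had the largest fall among the tested histone genes. Its counts were 192, 293, 251 and 199 in Cont, 146, 179, 124 and 122 in 10 d, and 59, 55, 42 and 71 in 20 d. Every 20 d library was lower than every library of the other conditions, whereas Cont and 10 d overlapped on the CPM scale. Its level was 2.56 ± 0.461, 2.02 ± 0.374 and 0.842 ± 0.148 CPM in Cont, 10 d and 20 d (SD, n = 4). The log2 fold change was -1.60 (SE 0.18) at 20 d against Cont with an edgeR adjusted p of 2.78e-06, which is 3.03-fold lower. From 10 d to 20 d it was -1.26 (SE 0.18, edgeR adjusted p = 0.000156), and at 10 d against Cont it was -0.34 (SE 0.17) and was not called (edgeR adjusted p = 0.214), whereas with scaling by total counts it was -0.71 at 10 d and was called (edgeR adjusted p = 0.0123). The call at 20 d held in all 20 alternative settings.

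*H3f3a_2*, which encodes the same protein, went the other way on the TMM scale. It had 16355, 26793, 23188 and 22121 counts in Cont, 16729, 26110, 23680 and 22191 in 10 d, and 17591, 28553, 27110 and 23082 in 20 d. Replicate 1 was the lowest library in each condition, and the conditions overlapped. The level was 241.6 ± 40.8, 312.9 ± 51.0 and 360.1 ± 78.6 CPM in Cont, 10 d and 20 d. The log2 fold change at 20 d against Cont was 0.58 (SE 0.15, edgeR adjusted p = 0.00645), while 0.37 at 10 d was not called (edgeR adjusted p = 0.121). With the replicate number as a block, *H3f3a_2* was also called higher at 10 d and from 10 d to 20 d, although no source used here ties a number to a rat. In TPM, where libraries have the same sum, *H3f3a_2* was 280.2 ± 74.8, 273.5 ± 55.1 and 291.7 ± 70.9, and with scaling by total counts the log2 change at 20 d was 0.17 and not called. The 20 d call held in 18 of 20 alternatives and was also lost with a filter of at least 1 CPM in at least 4 libraries.

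A ratio of both genes within a library does not depend on the scaling. The counts of *H3f3a_1* were 1.17%, 1.09%, 1.08% and 0.900% of those of *H3f3a_2* in the Cont libraries. The ratio ranged from 0.524% to 0.873% (10 d) and from 0.155% to 0.335% (20 d), and the 3 conditions did not overlap. The ratio is a description, to which no test was applied. The third locus, *H3f3c*, kept near its ratio to *H3f3a_2*, at 6.74% to 7.62% (Cont), 7.02% to 9.28% (10 d) and 7.01% to 8.01% (20 d), and these ranges overlapped.

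**Figure D2:**
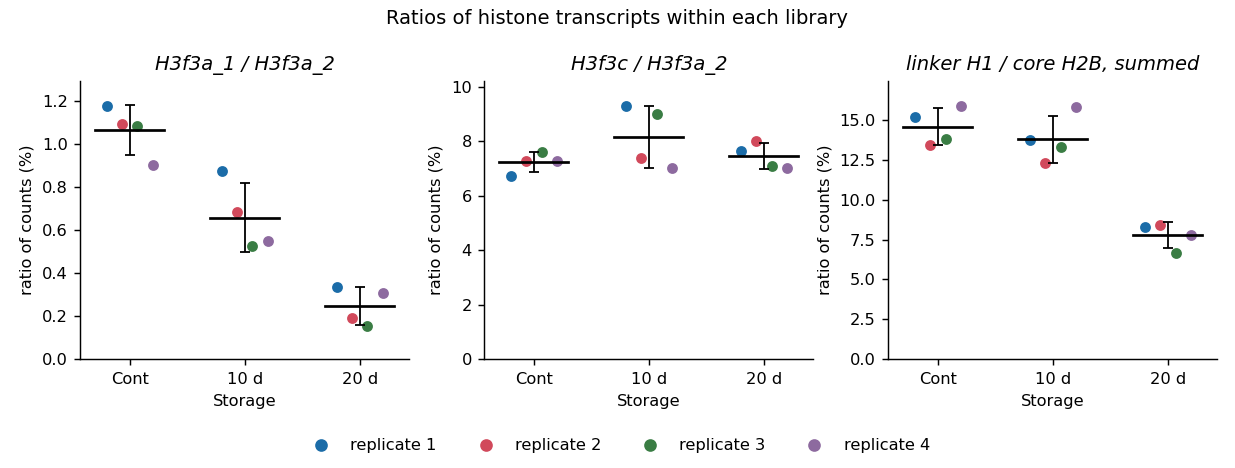
Ratios of histone counts within each library in percent, by storage condition, with 1 point per library coloured by replicate, a line at the mean and a bar of 1 SD (n = 4). *H3f3a_1* against *H3f3a_2* (left) went from 0.900% to 1.17% in Cont down to 0.155% to 0.335% in 20 d, *H3f3c* against *H3f3a_2* (middle) overlapped throughout, and the summed linker H1 against H2B genes (right) stood at 6.67% to 8.44% in 20 d, below both other conditions.

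*H3f3c* had 1102, 1947, 1767 and 1611 counts in Cont, 1553, 1927, 2128 and 1557 in 10 d, and 1347, 2288, 1926 and 1617 in 20 d. It had 17.6 ± 3.67, 25.3 ± 4.00 and 26.8 ± 6.43 CPM, and its log2 changes of 0.53 (SE 0.17, edgeR adjusted p = 0.0405) at 10 d and 0.61 (SE 0.17, edgeR adjusted p = 0.00784) at 20 d were called. The 10 d call was lost in 9 of 20 alternatives, among them leaving out Cont replicate 1, 2 or 4 or 10 d replicate 2 or 3 (adjusted p of 0.056 to 0.124 in edgeR without each of these). The 20 d call held in 18 of 20 and was lost with total counts and with a filter of at least 1 CPM in at least 4 libraries. Since the locus of *H3f3c* is annotated as a pseudogene in RefSeq, its counts may hold reads of the other H3.3 genes.

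*H2az1*, which encodes the variant H2A.Z found at promoters, was lower in 20 d. Its counts were 106, 114, 92 and 101 in Cont, 59, 39, 70 and 66 in 10 d, and 42, 52, 47 and 49 in 20 d. All Cont libraries were above all libraries of the other conditions. The level was 1.13 ± 0.0587, 0.828 ± 0.198 and 0.709 ± 0.0623 CPM in Cont, 10 d and 20 d. The log2 fold change was -0.67 (SE 0.20, edgeR adjusted p = 0.0124) at 20 d and -0.45 (SE 0.19, edgeR adjusted p = 0.149) at 10 d, and the call at 20 d was lost without a filter on low counts (edgeR adjusted p = 0.0591). The 10 d change was called lower with scaling by total counts (-0.80, edgeR adjusted p = 0.0108) and with a filter of at least 1 CPM in at least 4 libraries (-0.58, edgeR adjusted p = 0.0381), and with total counts the 20 d change was -1.06. *H2az2*, the second H2A.Z gene, was not called in any comparison, with 1.02 ± 0.0944, 1.52 ± 0.256 and 1.04 ± 0.573 CPM. Its 20 d counts were 123, 55, 63 and 36, and without 20 d replicate 1 it was called lower from 10 d to 20 d. In Cont the counts of *H2az1* were 100% to 118% of those of *H2az2*, in 10 d 30.2% to 74.2% and in 20 d 34.1% to 136%, so that the 20 d libraries spanned the Cont range.

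The replacement linker histone *H1f0*, which encodes H1.0 of non-dividing cells, was not called, with 1.71 ± 0.309, 1.68 ± 0.312 and 2.01 ± 0.273 CPM, and its change at 20 d was -0.16 with total counts. Of the 6 tested replacement genes, 1 was higher and 0 lower at 10 d, 2 were higher and 2 lower at 20 d, and 1 was lower between 10 d and 20 d. Of all genes tested, 7.86% were higher and 5.68% lower at 10 d, 12.8% and 21.1% at 20 d, and 3.38% and 12.6% between 10 d and 20 d. The higher genes were *H3f3c* and, at 20 d, also *H3f3a_2*, and reads may be shared between them. The median log2 changes of the 6 replacement genes were 0.18, 0.13 and -0.07, beside -0.00, -0.01 and -0.08 over all genes tested. With scaling by total counts the replacement medians were -0.18, -0.27 and -0.11. DESeq2 and edgeR called the same 4 replacement genes at 20 d.

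**Figure D3:**
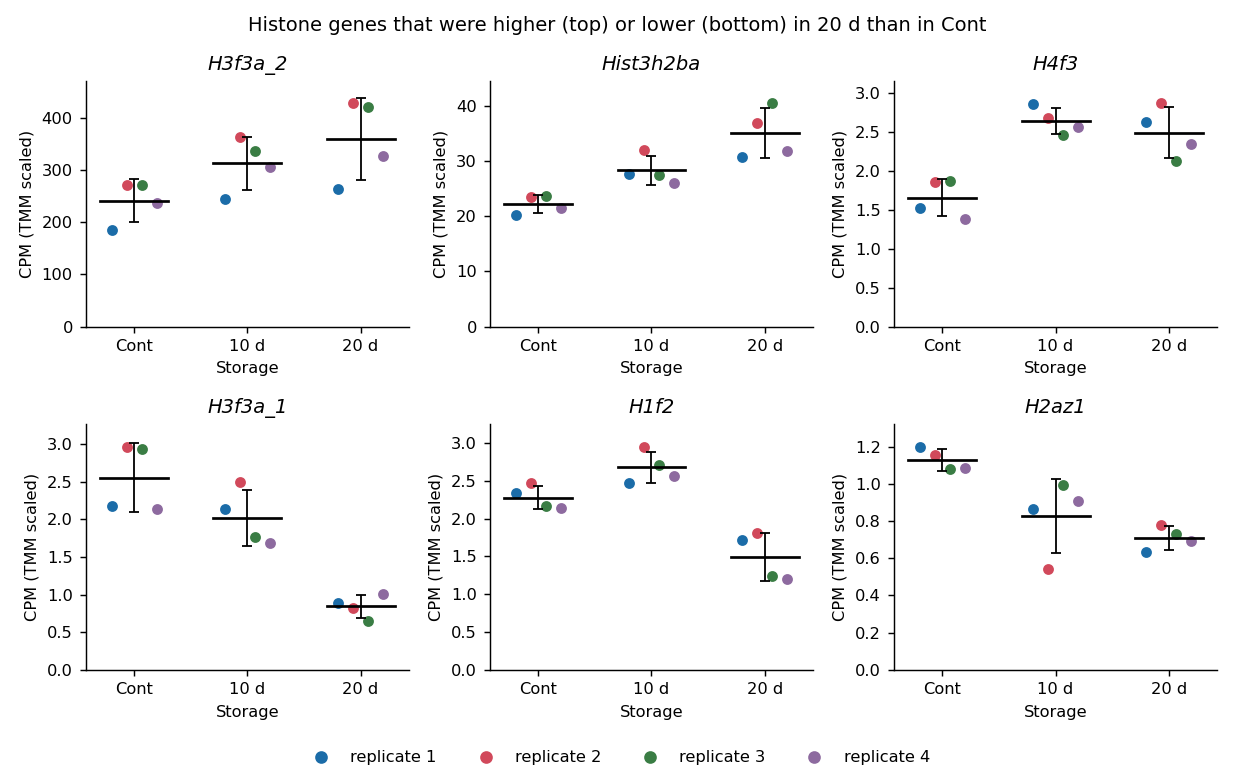
CPM (TMM scaled) of *H3f3a_2*, *Hist3h2ba* and *H4f3* (top) and *H3f3a_1*, *H1f2* and *H2az1* (bottom) in each library, by storage condition, with a line at the mean and a bar of 1 SD (n = 4); points are coloured by replicate number. The 20 d libraries of *H3f3a_1* (0.651 to 1.01 CPM) lie below all Cont libraries (2.14 to 2.97 CPM), and those of *Hist3h2ba* (30.8 to 40.5 CPM) lie above all Cont libraries (20.2 to 23.7 CPM).

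Among the replication-dependent genes, *Hist3h2ba* had the most counts. It lies outside the chromosome 17 cluster, at mRatBN7.2 chr10:43724930-43727107. Its counts were 1781, 2322, 2021 and 2002 in Cont, 1890, 2299, 1933 and 1884 in 10 d, and 2050, 2465, 2610 and 2246 in 20 d. On the CPM scale it had 22.2 ± 1.68, 28.3 ± 2.60 and 35.0 ± 4.52 in Cont, 10 d and 20 d, and all Cont libraries were below those of either stored condition. The log2 fold change was 0.35 (SE 0.10, edgeR adjusted p = 0.0205) at 10 d, 0.66 (SE 0.10, edgeR adjusted p = 4.48e-05) at 20 d, and 0.31 (SE 0.10, edgeR adjusted p = 0.0361) from 10 d to 20 d. Scaling by total counts turned the 10 d change to -0.016 and left 0.26 at 20 d, neither of them called, and 6 of 20 alternatives lost the 10 d call, among them leaving out Cont replicate 4 (edgeR adjusted p = 0.0626) or 10 d replicate 2 (edgeR adjusted p = 0.0767). The call from 10 d to 20 d was lost in 7 of 20, among them leaving out 10 d replicate 1, 3 or 4 or 20 d replicate 2 or 3 (edgeR adjusted p of 0.0688 to 0.125).

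The other H2B and H4 genes with calls were *Hist1h2bq_1*, *Hist1h2bo* and *H4f3*, all on chromosome 17 and all overlapping other genes in the table. *H4f3*, which encodes histone H4 and overlaps the H2A gene *Hist1h2an*, had 134, 183, 159 and 129 counts in Cont, 195, 192, 173 and 186 in 10 d, and 175, 191, 137 and 165 in 20 d. Its CPM values in Cont (1.39 to 1.86) were below those of both other conditions (10 d 2.46 to 2.86, 20 d 2.13 to 2.87). The log2 changes were 0.67 (SE 0.13, edgeR adjusted p = 0.00211) at 10 d and 0.59 (SE 0.13, edgeR adjusted p = 0.00227) at 20 d. Both held in 19 of 20 alternatives, and scaling by total counts left 0.31 and 0.19, not called.

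*Hist1h2bq_1* had 763, 760, 664 and 555 counts in Cont, 742, 816, 873 and 582 in 10 d, and 822, 766, 639 and 592 in 20 d. Replicate 4 was the lowest library on the CPM scale in each condition. Its levels were 7.52 ± 1.12, 10.7 ± 1.87 and 10.5 ± 1.75 CPM, with log2 changes of 0.50 (SE 0.14, edgeR adjusted p = 0.0227) at 10 d and 0.49 (SE 0.14, edgeR adjusted p = 0.0128) at 20 d. The 10 d call was lost in 7 of 20 alternatives, among them leaving out Cont replicate 2 or 4 or 10 d replicate 2 or 3 (edgeR adjusted p of 0.0597 to 0.0964). The 20 d call held in 18 of 20 and was lost with total counts and with a filter of at least 1 CPM in at least 4 libraries. *Hist1h2bo* had 2.52 ± 0.155, 3.01 ± 0.142 and 3.09 ± 0.304 CPM in Cont, 10 d and 20 d. Its log2 change of 0.29 at 20 d (SE 0.11, edgeR adjusted p = 0.0404) held in 9 of 20 alternatives, was lost on leaving out Cont replicate 2 or 4 or 20 d replicate 1, 3 or 4 (edgeR adjusted p of 0.0554 to 0.108), and turned to -0.095 with scaling by total counts.

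*H1f2*, a linker histone of the chromosome 17 cluster, was the replication-dependent gene that fell. Its counts were 206, 244, 185 and 199 in Cont, 169, 212, 191 and 186 in 10 d, and 114, 121, 80 and 85 in 20 d. The 20 d libraries were below all other libraries. The level was 2.28 ± 0.156, 2.68 ± 0.209 and 1.49 ± 0.316 CPM in Cont, 10 d and 20 d. The log2 fold change was -0.61 (SE 0.14, edgeR adjusted p = 0.00284) at 20 d against Cont and -0.84 (SE 0.14, edgeR adjusted p = 0.000627) against 10 d, and 0.23 (SE 0.14, edgeR adjusted p = 0.321) at 10 d was not called and became -0.12 with total counts. Both calls held in all 20 alternatives. *H1f2* overlaps a gene model without a symbol in the table.

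The sum of the replication-dependent linker histones was also lower in 20 d, but it includes *H1f2* and is not a separate result. *H1f2* itself had 2.14 to 2.47 CPM in the Cont libraries and 1.20 to 1.81 CPM in those of 20 d. The replication-dependent H1 genes together had 4.79 ± 0.114, 5.85 ± 0.0624 and 3.84 ± 0.403 CPM in Cont, 10 d and 20 d. The H2B genes together had 33.02 ± 2.05, 42.8 ± 3.98 and 49.4 ± 4.70 CPM. Most of the H2B sum was *Hist3h2ba*, with 20.2 to 23.7 CPM in Cont and 30.8 to 40.5 CPM in 20 d. In counts, which need no scaling within a library, summed H1 was 13.4% to 15.8% of summed H2B in the Cont libraries, against 12.3% to 15.8% (10 d) and 6.67% to 8.44% (20 d), with no overlap between 20 d and the others. No test was applied to these sums. Of the 4 tested replication-dependent H1 genes, all had a negative log2 change from 10 d to 20 d, from -0.85 to -0.32, and *H1f2* alone was called. *H1f4*, another linker histone, had 1.99 ± 0.205, 2.33 ± 0.243 and 1.87 ± 0.187 CPM and was not called, although it was called lower at 20 d with scaling by total counts.

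The sums of the other families depended on the scaling. On the TMM scale the H2A genes had 1.77 ± 0.165, 2.27 ± 0.420 and 1.99 ± 0.168 CPM, the H3 genes 4.75 ± 0.164, 5.49 ± 0.169 and 5.32 ± 0.185 CPM, and the H4 genes 1.99 ± 0.204, 3.05 ± 0.0885 and 2.73 ± 0.244 CPM. With scaling by total counts the H3 sum was 5.65 ± 0.421 CPM in the Cont libraries and 4.83 ± 0.150 in those of 20 d, which did not overlap, and the H1 sum was 5.70 ± 0.531 and 3.48 ± 0.324 CPM. None of the 6 tested H2A and 6 tested H3 genes was called at an edgeR adjusted p under 0.05 in any comparison. An unadjusted p under 0.05 was found for 1 H2A and 2 H3 genes at 10 d, for 0 and 1 at 20 d and for 0 and 0 between 10 d and 20 d. Of all 8382 genes tested, 2099, 3575 and 2451 had an unadjusted p under 0.05 in these comparisons. DESeq2 also called none of these H2A and H3 genes. The H3 genes of high TPM are copies of the symbol *Hist2h3c2*. *Hist2h3c2_4* overlaps other histone genes and had log2 changes of 0.03 at 10 d and 0.10 at 20 d, which with scaling by total counts became -0.31 and -0.28 and were called lower. *Hist2h3c2_6* had 0.42 and 0.19, *Hist2h3c2_3* 0.12 and 0.03, and the H2A gene *Hist1h2ac* 0.65 and 0.21, none of them called, and at 20 d all 3 were negative with total counts (-0.20, -0.39 and -0.16).

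**Figure D4:**
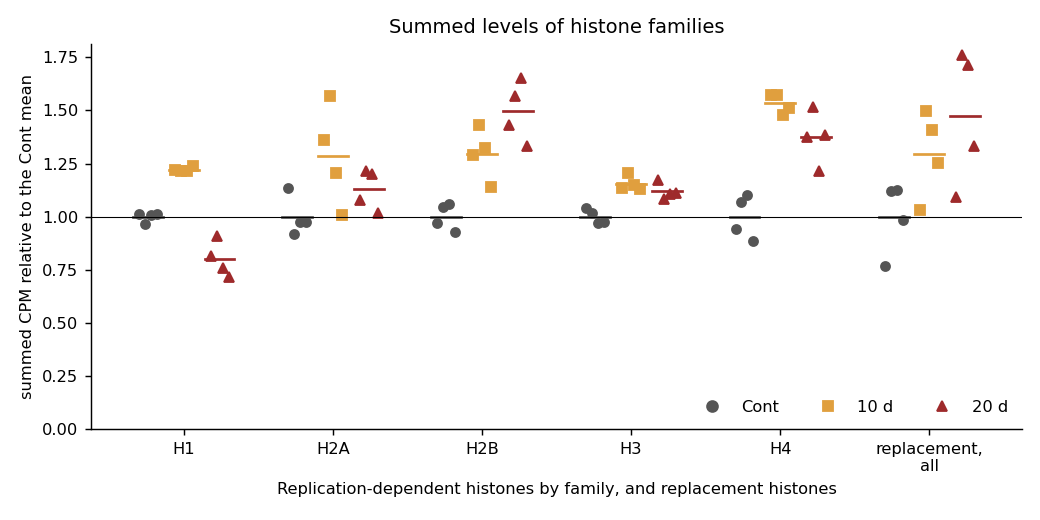
Summed CPM (TMM scaled) of the replication-dependent histone genes by family (H1, H2A, H2B, H3, H4) and of the replacement histone genes, each divided by the mean of the Cont libraries, with 1 point per library and a line at the mean. On this scale H1, whose sum includes *H1f2*, is the family whose 20 d libraries lie below 1, with a mean of 3.84 CPM against 4.79 in Cont. With total counts the H3 sum of 20 d was also below Cont (4.83 against 5.65 CPM). The sums were not tested.

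The replication-dependent and replacement classes were then compared as sums. Replication-dependent genes had 46.3 ± 2.12, 59.5 ± 4.49 and 63.3 ± 4.90 CPM in Cont, 10 d and 20 d, and replacement genes 265.6 ± 44.8, 344.4 ± 54.1 and 391.5 ± 84.6 CPM. Without *Hist3h2ba*, the replication-dependent sum was 24.1 ± 1.43, 31.2 ± 2.33 and 28.2 ± 2.24 CPM, with the highest mean in 10 d. In TPM the sums were 80.3 ± 12.7, 77.8 ± 8.08 and 75.6 ± 8.07 for the replication-dependent genes and 330.8 ± 89.1, 324.9 ± 63.4 and 340.2 ± 82.2 for the replacement genes. The replication-dependent share of the counts of both classes was 15.1% ± 2.16, 14.9% ± 1.96 and 14.2% ± 2.26 in Cont, 10 d and 20 d, which differed by less than the spread between libraries. Without *Hist3h2ba* and the H3.3 genes, the share was 86.1% ± 1.45, 88.5% ± 0.805 and 88.3% ± 0.931. It ranged from 84.1% to 87.2% (Cont), 87.7% to 89.5% (10 d) and 87.4% to 89.6% (20 d), so that all Cont libraries lay below the stored ones. In summed TPM these ranges overlapped (89.6% to 91.0%, 90.9% to 92.9% and 91.0% to 92.7%). No test was applied to these shares. In each condition replicate 1 had the highest share over all genes of both classes, at 18.3%, 17.8% and 17.5%. Of 24 tested replication-dependent genes, 3 were higher and 0 lower at 10 d, 4 were higher and 1 lower at 20 d, and 1 was higher and 1 lower between 10 d and 20 d. Their median log2 changes were 0.34, 0.20 and -0.16, and with scaling by total counts -0.02, -0.18 and -0.20. Of all genes tested, 7.86% were called higher and 5.68% lower at 10 d, and 12.8% higher and 21.1% lower at 20 d. Between 10 d and 20 d, 3.38% were higher and 12.6% lower. On the TMM scale, each class had calls in opposite directions at 20 d, with *H1f2* as the only lower replication-dependent gene. With total counts, no histone gene was called higher.

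Of the 9 histone genes that were not tested, *Hist2h3c2_1* and *Hist2h3c2_5* had no count in any library, so that at most 3 counts in a group are allowed by the counting error. *H1f10* had 2, 9 and 4 counts over the 4 libraries of Cont, 10 d and 20 d, *Hist1h2bg* 30, 31 and 18, and *H2ac12* 26, 16 and 14. The remaining *H2ac1*, *H1f6*, *H1f7* and *H1f8* had 0 or 1 count per condition. *H2ax* had 18 to 40 counts per library and log2 changes of 0.70 at 10 d and 0.36 at 20 d, not called (edgeR adjusted p = 0.131 and 0.378).

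Genes that process histone mRNA or carry histones were described beside them. The background at 20 d was 12.8% of all genes tested called higher and 21.1% lower. Of 11 tested genes of histone mRNA processing and decay, 0 were called at 10 d, and 1 was higher at 20 d, *Lsm10*, a subunit of the U7 particle that cuts the ends of replication-dependent histone mRNAs (log2 change 0.71, edgeR adjusted p = 0.0432). At 10 d, 0 genes of this list had an unadjusted p under 0.05, beside 2099 of all 8382 genes tested. DESeq2 and the likelihood ratio test called 0, and scaling by total counts called 1 lower, beside 1899 of all 8382 genes. With total counts the change of *Lsm10* was 0.34 and not called. The stem-loop binding protein gene *Slbp* had log2 changes of 0.01 and -0.20, not called. Of 17 histone chaperones, 0 were called at 10 d, where 4 had an unadjusted p under 0.05, beside 2099 of all 8382 genes. DESeq2 and the likelihood ratio test called 0, and scaling by total counts called 8 lower, beside 1899 of all 8382 genes. At 20 d, *Asf1b*, a chaperone of H3 and H4, was higher (0.65, edgeR adjusted p = 0.00509; 0.27 and not called with total counts). *Ubn1*, a subunit of the HIRA complex that deposits H3.3, was lower (-1.03, edgeR adjusted p = 0.00136), as was the nucleolar chaperone *Npm1* (-0.40, edgeR adjusted p = 0.0390). The variant gene *Macroh2a1*, an H2A with a large extra domain, was lower at both times (-0.35 and -0.28, edgeR adjusted p = 0.0292 and 0.0439).

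Of 17 genes of S phase and mitosis, 2 were higher at 10 d and 4 at 20 d, and with scaling by total counts 0 were higher and 2 lower at each time. On the TMM scale, 7.86% of all genes tested were called higher and 5.68% lower at 10 d, and 12.8% higher and 21.1% lower at 20 d. Total counts called 1899 of all 8382 genes lower at 10 d and 2911 at 20 d. *Tk1*, thymidine kinase, was 0.44 higher at 10 d and 0.57 higher at 20 d on the log2 scale (0.09 and 0.17 with total counts). *Tyms*, thymidylate synthase, was 0.41 higher at 20 d (0.02 with total counts), and *Mki67*, a marker of cycling cells, was 0.28 and 0.24 higher but had -0.08 and -0.14 with total counts. In the list of erythroid chromatin condensation and enucleation, 2 of 8 tested genes were higher and 1 lower at 10 d, and 1 higher and 2 lower at 20 d, whereas with total counts 4 and 5 were lower and 0 higher. *Kmt5a*, a methyltransferase of histone H4, was higher at 10 d (0.41, edgeR adjusted p = 0.00267; 0.04 with total counts) and was 0.06 at 20 d. The exportin *Xpo7* was higher at 20 d (0.26, edgeR adjusted p = 0.00341), but its change was -0.13 with total counts. *Rac2*, which leukocytes also express, was lower (-1.12 and -2.04).

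Markers of other blood cells moved in the same comparisons, and their calls are given out of the genes tested. The filter on low counts kept 8 of 12 neutrophil, 2 of 8 monocyte and 6 of 10 T cell genes. It kept 8 of 10 B cell and 8 of 11 platelet genes. Leukocyte genes fell, with 5 of 6 called lower at 10 d and at 20 d. *Ptprc*, which encodes CD45, had 16.7, 9.09 and 2.38 CPM in Cont, 10 d and 20 d (log2 changes -0.88 and -2.81). *Arhgdib* (-1.46 and -4.91), *Cd53* (-2.01 and -4.92) and *Laptm5* (-1.65 and -3.09) fell as well. The summed leukocyte markers were 44.8 to 64.1 CPM (Cont), 40.4 to 49.1 (10 d) and 27.3 to 31.0 (20 d). The largest part of this sum was *Cd52*, the member that was not called, with means of 28.6, 30.5 and 26.2 CPM. Neutrophil markers, with 6 and 8 of 8 called lower, went from 43.9 to 68.9 CPM in Cont through 8.63 to 26.9 in 10 d to 2.39 to 4.92 in 20 d, led by *S100a9*, *S100a8* and *Mmp8*. Monocyte markers, with 2 of 2 lower at both times, went from 38.6 to 69.4 CPM through 3.62 to 17.6 to 1.35 to 2.82, mostly *Lyz2* with *Csf1r* far below it. T cell markers, with 6 of 6 lower at both times (*Tcf7*, *Il7r* and *Lck* first), went from 3.82 to 5.19 CPM through 0.777 to 0.934 to 0.0310 to 0.180, with *Cd3d*, *Cd2* and *Cd5* at 0 counts in 20 d. Of the other markers, *Lcn2* was at 0 in Cont and 20 d, *Cd14* and *Cd5* in 10 d.

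B cell markers followed another course, with 2 of 8 higher at 10 d and 7 lower at 20 d. Their sum was 4.76 to 6.38 CPM (Cont), 7.49 to 9.31 (10 d) and 0.331 to 0.660 (20 d), with *Ighm*, *Bank1* and *Cd79a* first. Platelet markers such as *Pf4*, *Itga2b* and *F13a1* were higher at 10 d (7 of 8), with sums of 0.457 to 1.19, 3.77 to 4.99 and 0.574 to 0.893 CPM. Red cell genes, the defining markers of the purified cells, were present at 616151 to 804911 CPM in Cont and 857172 to 956381 in 20 d. These CPM were divided by TMM factors of 1.03 to 1.30 (Cont) and 0.864 to 0.949 (20 d), so they are not shares of the reads. At 10 d, 9 of 10 were called higher. At 20 d, 7 were higher and 1 lower than in Cont, and from 10 d to 20 d 0 were higher and 3 lower. With total counts, 2 were higher at each time. *Bpgm* was 0.59 and 0.57, *Tfrc* 0.50 and 0.65, and *Epb42* 0.56 and 0.64 higher on the log2 scale. The falls of *H3f3a_1*, *H2az1* and *H1f2*, and of *Ubn1*, *Npm1* and *Macroh2a1*, at 20 d were thus measured beside the falls of leukocyte markers. The rises at 20 d were measured beside those of 7 of the 10 red cell genes, with 1 other red cell gene lower. The part of these cells in the results was not tested. In these bulk samples, fewer cells of a type and less RNA per cell cannot be told apart.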

How the data were processed

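Total RNA libraries (NEBNext Ultra II, rRNA depleted) were read by the authors in CLC Genomics Workbench against mRatBN7.2, and a table of 29539 genes was deposited for 12 libraries. The deposited counts are raw reads per gene, and they were the input of all tests. The deposited TPM values give the authors' abundance per transcript length, with equal sums between libraries, and served for levels between genes. The deposited RPKM values were not used for results. The values the authors call CPM are a deposited signal over an adjusted library size and were not used. Deposited columns of the authors' own comparisons hold fold changes, log2 fold changes, p-values and largest group means, and none of these was used. How strand and overlapping genes were counted is not given in the sources used here, so that reads from a gene and an overlapping gene cannot be told apart.

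Tests were run with edgeR 4.0.16 (R 4.3.3). Genes were kept by filterByExpr, libraries were scaled by TMM (factors of Cont libraries 1.03 to 1.30, of 10 d libraries 0.859 to 0.985, of 20 d libraries 0.864 to 0.949), and the quasi-likelihood F-test was run on 8382 genes in 1 fit of the 3 conditions. P-values were adjusted over all genes tested by Benjamini-Hochberg. Alternatives were total counts alone, RLE, globin, 7SL and mitochondrial genes left out, DESeq2 1.42.0, the likelihood ratio test, no filter, at least 1 CPM in at least 4 libraries, the replicate number as a block, and each library left out. The tests were checked on simulated counts. Named were all members called in any comparison and the 12 of highest mean TPM, and of each other list the 3 genes of smallest adjusted p among the conditions that passed a pair, with *Ptprc*. *Slbp*, *H1f10*, *H2ax*, *H2az2*, *Cd2*, *Cd3d*, *Cd5*, *Cd14*, *Cd52*, *Lcn2*, *Hist1h2bg* and *H2ac12* were named after their values were seen. The members and lists were chosen with earlier results of these data known. Promoters are from RefSeq (GRCr8), matched by symbol or, for *H3f3a_1*, by its neighbours. Plots used matplotlib 3.10.9 in Python 3.11.15 with pandas 2.3.3. Depth limits the genes of low count, and limits from counts of 0 cover counting error only.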

Additional observations from a re-analysis of the deposited data

Results flagged for a closer look

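In 6 groups of 4 libraries, 1 library stood apart from the other 3 by Dixon's criterion, which chance meets in about 1 in 20 groups, and 75 groups were screened. *H1f0* had 2.17 CPM in Cont replicate 4, and the others had 1.52 to 1.57 CPM. *Hist2h3c2_6* had 0.710 CPM in Cont replicate 2, and the others 0.890 to 0.895 CPM. *Hist1h2bo* had 3.22 CPM in 10 d replicate 1, and the others 2.93 to 2.95 CPM. The replication-dependent share of histone counts was 18.3% in Cont replicate 1, with 13.8% to 14.3% in the others, and 17.8% in 10 d replicate 1, with 13.9% to 14.0% in the others. The summed CPM of the replication-dependent H1 genes was 4.62 in Cont replicate 2, with 4.83 to 4.86 in the others.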

How the results depend on the processing

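The falls of *H3f3a_1* and *H1f2* at 20 d were called in all 20 alternatives, whereas the rises depended on the scaling. With total counts alone, 0 histone genes were higher in each comparison, 3 were lower at 10 d, and 5 were called at 20 d against Cont, all 5 lower. Of all 8382 genes, 98 were then higher and 1899 lower at 10 d, and 99 higher and 2911 lower at 20 d. The log2 changes of *Hist3h2ba* at 10 d (-0.016), *Hist2h3c2_4* at 10 d (-0.31) and 20 d (-0.28) and *Hist1h2bo* at 20 d (-0.095) turned negative with a call on either side of the change. Uncalled values of other named genes also turned negative (*H1f2*, *H1f4*, *Hist1h2bo* and *Hist2h3c2_3* at 10 d, and *H1f0*, *Hist1h2ac*, *Hist2h3c2_3* and *Hist2h3c2_6* at 20 d). At 10 d against Cont, RLE called 2 histone genes, all higher, and leaving out globin, 7SL and mitochondrial genes called 1. The filter of at least 1 CPM in at least 4 libraries called 2 at 10 d (1 higher, 1 lower), 5 at 20 d (2 higher) and 0 higher between 10 d and 20 d. Without a filter, 2 were higher between 10 d and 20 d. On leaving out each library in turn, 1 to 5 were called at 10 d, all higher (1 without Cont replicate 4 or 10 d replicate 2, 2 without Cont replicate 2 or 10 d replicate 3), and 0 to 1 were higher between 10 d and 20 d. Among the 3 conditions, DESeq2 called 3 histone genes, the likelihood ratio test 4 and no filter 5. The replication-dependent share in summed TPM was 20.0%, 19.6% and 18.6% in Cont, 10 d and 20 d. Of 894 recomputed values of named histone genes, 832 kept their side of the threshold, among them 43 uncalled values that changed sign, 48 lost the call, 10 gained it and 4 reversed. The causes were not tested.

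With the replicate number as a block, 2 histone genes were higher between 10 d and 20 d and 6 were called among the 3 conditions. *H3f3a_2* was then also called at 10 d (log2 change 0.38, edgeR adjusted p = 1.94e-05) and from 10 d to 20 d (0.19, edgeR adjusted p = 0.0132). The conditions share rats, but no source used here ties a replicate number to a rat. Libraries of the same number had deviations from the group means correlated at 0.0167 to 0.214 (5 of 12 pairs over 0.1), and 9 of 12 libraries correlated best with their own number, whereas 0 of 36 pairs of different numbers were over 0.1, which is a hint from the data.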
